A study of Homo sapiens with 16 samples.

Results

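The mRNA of 10 amino acid transporter genes (SLC7A5, SLC3A2, SLC7A1, SLC7A6, SLC7A11, SLC1A4, SLC1A5, SLC38A1, SLC38A2 and SLC43A1) was followed across human myeloma cells in which CD28 or its ligand CD86 had been silenced. The set was built around SLC7A5, which was chosen because its mRNA was low under both CD28 and CD86 shRNA in these libraries, and the other 9 are carriers of amino acids or the partner chain of such carriers. All 10 symbols were found among the 23459 genes of the deposited table, and all 10 passed the filter of a mean of at least 1 FPKM (the fragments of a gene divided by its exon length and by the library total, so that genes can be compared). Because the values under CD28 and CD86 shRNA chose SLC7A5, they are given for it as a description without a test.

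RNA sequencing covered 16 libraries, 1 for each combination of 4 backgrounds and 4 constructs. The backgrounds were the established multiple myeloma lines KMS18, MM.1s and RPMI8226, and a derivative of RPMI8226 with overexpressed Mcl1, an anti-apoptotic protein, here called the Mcl1 line, which is a single derived line. Each background had received a short hairpin RNA (shRNA) against CD28, CD86 or Gapdh, or the empty pLKO.1 vector (Vec), so that the control cells carry a vector too. How many hairpins were used per target, with which sequences and for how long, is not stated in the labels.

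Amino acids that cells cannot make enter through carriers of the SLC families. SLC7A5 (LAT1) is the light chain that carries leucine and other large neutral amino acids, and it reaches the plasma membrane only when bound to the heavy chain SLC3A2 (4F2hc, CD98), which it shares with SLC7A6 (y+LAT2) and the cystine carrier SLC7A11 (xCT). SLC1A5 (ASCT2) and SLC1A4 (ASCT1) exchange small neutral amino acids, SLC1A5 with a preference for glutamine; SLC38A1 and SLC38A2 (SNAT1 and SNAT2) take up glutamine and alanine with sodium; SLC7A1 (CAT1) carries arginine and lysine; and SLC43A1 (LAT3) carries branched-chain amino acids without a heavy chain. Leucine that enters the cell supports mTORC1, and several of these carriers are textbook targets of the stress factor ATF4 and of MYC. Myeloma cells secrete large amounts of antibody protein and so depend on a steady supply of amino acids.

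A hairpin can lower mRNAs other than its target when bases near the start of its guide strand, the seed, pair with a 3′ UTR. As the hairpin sequences were not at hand, the 11092 heptamers (runs of 7 bases) held by at least 500 tested 3′ UTRs were ranked by the median change of the genes that hold them, leaving out the 10 transporters but no other tested gene. The ranking used the mean change of the 3 parental lines, so a low median of the holders there follows from the choice of heptamer; the Mcl1 line was not used. The 2 heptamers with the lowest median under CD28 shRNA were TGTGTTA and CTGTGTT, which overlap as the octamer CTGTGTTA, and the 2 lowest under CD86 shRNA were TCAAGCA and TTCAAGC, which overlap as TTCAAGCA. Whether these letters match the hairpins used is not known from the sources used here. The longest annotated 3′ UTR of SLC7A5 (GENCODE v29, 2947 bases, chromosome 16) holds both octamers, and the sites are printed 5′ to 3′ on the mRNA strand, as DNA letters, because SLC7A5 was low under both shRNAs; capitals mark the octamer or heptamer.
SLC7A5, CD28-associated octamer, base 2849 of the 3′ UTR: ccttctttattCTGTGTTAatggctaacct
SLC7A5, CD28-associated heptamer, base 1819 of the 3′ UTR: aggtggactgaCTGTGTTgggcaagacct
SLC7A5, CD86-associated octamer, base 2576 of the 3′ UTR: cttcaggtgttTTCAAGCAcaacccaccac
The CD28-associated octamer occurs in 4.97% and the CD86-associated octamer in 5.73% of 19090 annotated 3′ UTRs, and 0.744% hold both. None of the other 9 transporters holds either octamer. Single heptamers stand in the 3′ UTRs of SLC7A6 (1 CD28-associated), SLC38A1 (3 CD28-associated) and SLC7A11 (1 for each shRNA), of which the SLC7A11 pair is shown as the one with a heptamer of each shRNA and the first of the 2 CTGTGTT sites of SLC38A1 as an example from the gene with the most.
SLC7A11, CD28-associated heptamer, base 6412 of the 3′ UTR: tgagcatcataTGTGTTAaggctgtatca
SLC7A11, CD86-associated heptamer, base 7229 of the 3′ UTR: tggtcctcaacTCAAGCAgagtttcttca
SLC38A1, CD28-associated heptamer, base 2767 of the 3′ UTR: agggaaatctaCTGTGTTtaggcacaggc
SLC3A2, SLC7A1, SLC1A4, SLC1A5, SLC38A2 and SLC43A1 hold none of the 4 heptamers.

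The libraries had 3914513 to 5900955 reads in genes, and the CD28 shRNA library was the shallowest of its background in all 4. CD28 mRNA under CD28 shRNA was at 71.7% ± 7.14 of Vec (SD, n = 3 lines) and 67.5% in the Mcl1 line. CD86 mRNA under CD86 shRNA was at 54.9% ± 18.5 and 49.4%, and GAPDH mRNA under Gapdh shRNA at 32.7% ± 21.2 and 21.3%. With CD86 shRNA, CD86 had 28 reads in MM.1s and 18 in KMS18, and its difference from Vec did not pass (log2 -0.62, SE 0.24, limma adjusted p = 0.315). With CD28 shRNA, CD86 was at 190% ± 81.6 of Vec and 211% in the Mcl1 line (parental log2 0.71, limma adjusted p = 0.142). With Gapdh shRNA, CD86 was at 145% ± 54.7 of Vec and 94.2% in the Mcl1 line. Relative to Gapdh shRNA, CD86 with CD28 shRNA was at 89.7% in KMS18, 139% in MM.1s, 225% in the Mcl1 line and 174% in RPMI8226. The identity of the cells was checked on marker lists. The 8 plasma cell markers summed to 631 to 1887 FPKM per library, against at most 7.56 FPKM for 5 T cell markers, 3.54 for 5 myeloid, 0.755 for 5 stromal and 15.4 for 3 B cell markers; CD3D, CD3G, CD2, CD14, LYZ, CSF1R, FCGR3A and all 5 stromal markers were below 1 FPKM in all 16 libraries. As everywhere in bulk RNA, fewer cells with an mRNA and less of it per cell cannot be told apart.

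SLC7A5 mRNA was lowest with CD28 shRNA, intermediate with CD86 shRNA and high in both controls, in the same order in all 4 backgrounds. In KMS18 its level was 73.4 FPKM with CD28 shRNA, 119 with CD86 shRNA, 312 with Gapdh shRNA and 276 with Vec. In MM.1s the level was 8.47, 18.3, 40.2 and 46.7 FPKM with CD28, CD86 and Gapdh shRNA and Vec, in the Mcl1 line 28.4, 76.5, 123 and 120.3 FPKM in that order, and in RPMI8226 23.6, 63.5, 79.9 and 83.4 FPKM. Within a background no library with CD28 or CD86 shRNA reached the level of either control. These levels rest on 188 to 8295 reads per library.

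With CD28 shRNA, SLC7A5 stood at 24.4% ± 5.44 of Vec in the 3 parental lines (range 18.2% to 28.3%), a log2 difference of -2.0 (SE 0.17). The Mcl1 line was at 23.6%. SLC7A5 was therefore further below Vec than CD28, the target of the hairpin, in every background: CD28 itself was at 65.1% to 79.3% in the parental lines. With CD86 shRNA, SLC7A5 stood at 52.8% ± 20.3 of Vec (39.1% to 76.2%), a log2 difference of -0.97 (SE 0.17), with RPMI8226 the least affected of the 3 lines, and the Mcl1 line was at 63.6%. The log2 difference of CD86 over CD28 shRNA was 1.04 (SE 0.17).

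SLC7A5 was chosen for its level with the CD28 and CD86 hairpins, and the Gapdh hairpin was tested against Vec. SLC7A5 with Gapdh shRNA was at 98.3% ± 13.6 of Vec in the 3 lines and 103% in the Mcl1 line, and the log2 difference was -0.03 (SE 0.17, limma adjusted p = 0.9999). None of the 10 transporters passed in this comparison, and 0 had an unadjusted limma p under 0.05. Across all 11316 genes the same comparison called 0% (0 genes), with 402 at an unadjusted p under 0.05, and limma-voom on recovered reads also called 0. GAPDH, the target of the hairpin, did not pass either at a log2 difference of -1.89 (SE 0.37, limma adjusted p = 0.9999), so missing the threshold in this comparison does not show that a transporter was stable.

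**Figure D1:**
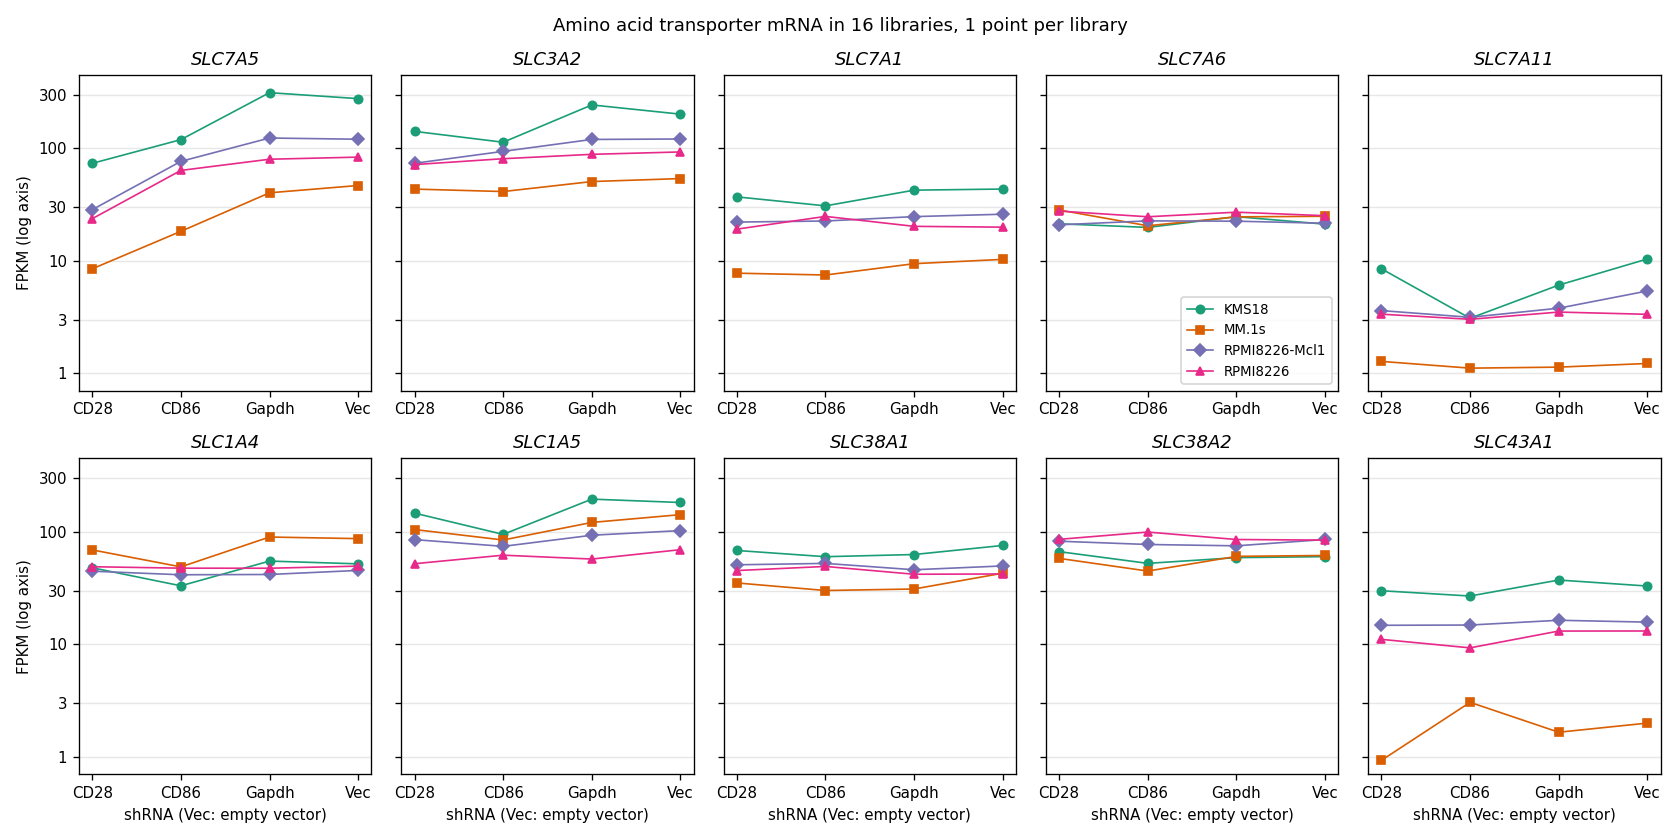
FPKM of the 10 transporter genes (vertical, log axis shared by all panels) with CD28, CD86 and Gapdh shRNA and Vec (horizontal) in KMS18, MM.1s, the Mcl1 line (RPMI8226-Mcl1) and RPMI8226; each point is 1 library and lines join the libraries of a background. SLC7A5 lies between 8.47 FPKM (MM.1s with CD28 shRNA) and 312 FPKM (KMS18 with Gapdh shRNA), while SLC7A6 stays between 19.8 and 28.3 FPKM in all 16 libraries.

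SLC3A2, the heavy chain that SLC7A5 needs, was below both controls with either shRNA in all 4 backgrounds, but by less than SLC7A5 and without passing the test over all genes. Its level in KMS18 was 141 FPKM with CD28 shRNA, 113 with CD86 shRNA, 243 with Gapdh shRNA and 201 with Vec. In MM.1s the values were 43.3, 41.2, 50.6 and 53.8 FPKM in the same order, in the Mcl1 line 73.5, 93.9, 119.8 and 120.9, and in RPMI8226 71.6, 80.7, 88.3 and 92.7. Relative to Vec the heavy chain was at 76.0% ± 5.26 with CD28 shRNA (log2 -0.39, SE 0.15, limma adjusted p = 0.169) and at 73.3% ± 15.7 with CD86 shRNA (log2 -0.47, SE 0.15, limma adjusted p = 0.216). The Mcl1 line was at 60.8% and 77.6% for the same shRNAs. In the authors' deposited table, SLC3A2 has a log2 fold change of -0.39 (false discovery rate 0.0403) for CD28 shRNA over Vec and -0.49 (0.00825) for CD86 shRNA over Vec.

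The ratio of light to heavy chain mRNA shows that both did not move in proportion. With CD28 shRNA the SLC7A5 to SLC3A2 ratio of FPKM was 0.519 in KMS18, 0.195 in MM.1s, 0.387 in the Mcl1 line and 0.330 in RPMI8226. With CD86 shRNA it was 1.05, 0.443, 0.815 and 0.787 in the same backgrounds, with Gapdh shRNA 1.29, 0.794, 1.03 and 0.904, and with Vec 1.37, 0.868, 0.995 and 0.899. Each background had its lowest ratio with CD28 shRNA and its second lowest with CD86 shRNA. Another light chain gave a contrast: the SLC7A6 to SLC3A2 ratio was higher with CD28 shRNA than with Vec in all 4 backgrounds (0.151 against 0.105 in KMS18, 0.652 against 0.462 in MM.1s, 0.284 against 0.178 in the Mcl1 line and 0.386 against 0.271 in RPMI8226). With CD86 shRNA it was above Vec as well, at 0.175, 0.496, 0.241 and 0.305 in that order. With Gapdh shRNA it was 0.101, 0.485, 0.188 and 0.306, so the CD86 shRNA ratio was not above both controls in RPMI8226. SLC3A2, the denominator, was below Vec with both shRNAs, while SLC7A6 itself was at 96.9% to 114% of Vec with CD28 shRNA. The values that chose SLC7A5 enter its ratio, and all ratios are given as a description.

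**Figure D2:**
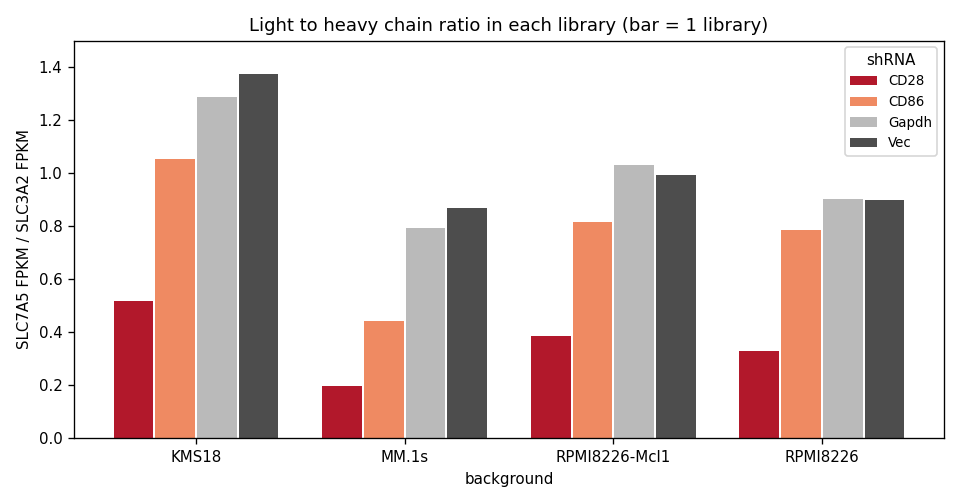
Ratio of SLC7A5 to SLC3A2 FPKM (vertical, from 0) in each of the 16 libraries, grouped by background, with bars for CD28, CD86 and Gapdh shRNA and Vec from left to right; each bar is 1 library, so there is no error bar. The CD28 shRNA bars lie between 0.195 and 0.519, and the Vec bars between 0.868 and 1.37.

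SLC7A6 and SLC7A11, the other light chains of SLC3A2 in the set, were nearer to Vec than SLC7A5 under CD28 shRNA in all 4 backgrounds. SLC7A6 was at 108% ± 6.68 of Vec with CD28 shRNA (log2 0.11, limma adjusted p = 0.584) and 91.3% ± 8.01 with CD86 shRNA (log2 -0.13, limma adjusted p = 0.605), and its levels over all libraries, 19.8 to 28.3 FPKM, were the narrowest of the set. SLC7A11, which imports cystine for glutathione, was scarce, at 1.11 to 10.4 FPKM and 60 to 661 reads. Its level in KMS18 was 8.48 FPKM with CD28 shRNA, 3.08 with CD86 shRNA, 6.07 with Gapdh shRNA and 10.4 with Vec, so that both controls differed there. In MM.1s it was at 1.27, 1.11, 1.13 and 1.22 FPKM in the same order, in the Mcl1 line at 3.60, 3.14, 3.78 and 5.38, and in RPMI8226 at 3.35, 3.01, 3.49 and 3.34. With CD86 shRNA it lay below both controls in all 4 backgrounds, narrowly in MM.1s. The log2 difference from Vec was -0.55 (SE 0.24, limma adjusted p = 0.357) with CD86 shRNA and -0.07 (SE 0.24, limma adjusted p = 0.895) with CD28 shRNA. The CD86 shRNA value rested on KMS18: without that line it was -0.09 (limma adjusted p = 0.917), and with limma-voom on recovered reads of all 3 lines it was -0.95.

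The exchangers of small neutral amino acids had their lowest values with CD86 shRNA in KMS18 and MM.1s. SLC1A5, the glutamine exchanger, had 147 FPKM with CD28 shRNA, 95.1 with CD86 shRNA, 196 with Gapdh shRNA and 183 with Vec in KMS18. In MM.1s it had 105, 84.8, 121 and 142 FPKM in that order, in the Mcl1 line 85.4, 74.4, 93.4 and 103, and in RPMI8226 52.2, 62.1, 57.4 and 69.5. It was below both controls in all 4 backgrounds with CD28 shRNA and in 3 of 4 with CD86 shRNA, the exception being RPMI8226. SLC1A5 was at 76.4% ± 3.58 of Vec with CD28 shRNA (log2 -0.39, SE 0.16, limma adjusted p = 0.221) and at 67.0% ± 19.7 with CD86 shRNA (log2 -0.61, SE 0.16, limma adjusted p = 0.150). The authors' deposited table lists -0.63 for CD86 shRNA over Vec, with a false discovery rate of 0.00133.

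SLC1A4, which exchanges alanine, serine and cysteine, was low with CD86 shRNA in KMS18 and MM.1s and at 95.9% of Vec in RPMI8226 and 91.5% in the Mcl1 line; the difference between backgrounds was not tested. With CD28 shRNA, CD86 shRNA, Gapdh shRNA and Vec it had 48.0, 33.2, 55.1 and 52.0 FPKM in KMS18 and 69.2, 48.9, 90.1 and 87.2 FPKM in MM.1s. In the Mcl1 line the same constructs gave 44.8, 41.6, 41.8 and 45.5 FPKM, and in RPMI8226 49.0, 47.6, 47.5 and 49.7 FPKM. The 2 RPMI8226 backgrounds thus varied little between constructs, with all 8 values between 41.6 and 49.7 FPKM. Over the 3 lines SLC1A4 was at 71.9% ± 21.1 of Vec with CD86 shRNA (log2 -0.50, SE 0.14, limma adjusted p = 0.170) and 90.2% ± 9.86 with CD28 shRNA (log2 -0.15, SE 0.14, limma adjusted p = 0.601). The authors' deposited table lists -0.53 for CD86 shRNA over Vec (false discovery rate 0.00615) and -0.38 for CD86 over CD28 shRNA (0.0421).

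For the remaining 4 carriers the mean level was 73.9% to 102% of Vec. SLC7A1, the arginine and lysine carrier, was at 85.5% ± 10.3 with CD28 shRNA, below both controls in all 4 backgrounds (log2 -0.22, limma adjusted p = 0.446), and at 89.4% ± 30.6 with CD86 shRNA (log2 -0.20, limma adjusted p = 0.597). SLC43A1 was below both controls with CD28 shRNA in all 4 backgrounds as well, at 73.9% ± 23.9 of Vec (log2 -0.33, limma adjusted p = 0.433); its MM.1s value rests on 12 reads, against 28 with Gapdh shRNA and 30 with Vec. SLC38A1, the holder of 3 CD28-associated heptamers, was at 93.1% ± 12.9 with CD28 shRNA and 88.8% ± 24.6 with CD86 shRNA. With Gapdh shRNA SLC38A1 was at 85.0% ± 13.6 of Vec. Relative to Gapdh shRNA, SLC38A1 with CD28 shRNA was at 108% to 113% in all 4 backgrounds. SLC38A2 was at 102% ± 8.26 with CD28 shRNA and 92.6% ± 23.1 with CD86 shRNA. None of these values passed the test.

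**Figure D3:**
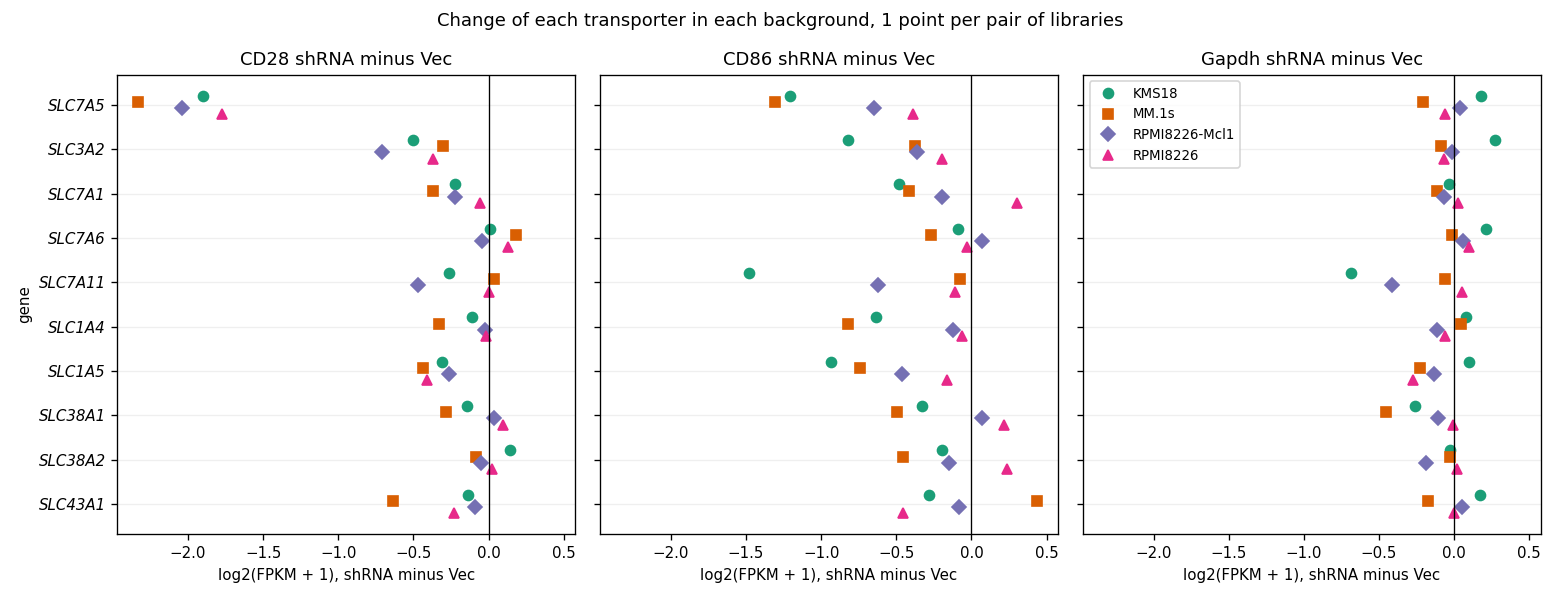
Difference in log2(FPKM + 1) from Vec (horizontal) for each transporter (vertical) with CD28, CD86 and Gapdh shRNA (panels from left to right); each point is 1 shRNA library minus the Vec library of the same background. SLC7A5 lies near -2.0 with CD28 shRNA in all 4 backgrounds (parental mean -2.0, Mcl1 line -2.04), and with CD86 shRNA several genes are lower in KMS18 and MM.1s than in RPMI8226.

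In the comparison of CD28 shRNA with Vec, 0 of the 9 transporters other than SLC7A5 passed at a limma adjusted p under 0.05, against 2.11% of all 11316 genes called lower and 0.716% called higher. An unadjusted limma p under 0.05 was found for 2 of the 9 (SLC3A2 and SLC1A5) and for 2240 of the 11316 genes. For CD86 shRNA, 0 of 9 passed, against 0.566% of all genes lower and 0.0619% higher. Here 4 of 9 had an unadjusted p under 0.05 (SLC3A2, SLC7A11, SLC1A4 and SLC1A5, each of them lower), as did 1453 of the 11316 genes. CD86, the target of the hairpin, did not pass there either, so missing the threshold does not show that a transporter was stable. Between CD86 and CD28 shRNA 0 of 9 passed, against 5.41% of all genes higher and 4.1% lower with CD86 shRNA. At an unadjusted p under 0.05, 2 of 9, SLC7A6 and SLC1A4, were lower, and 3022 of the 11316 genes differed in either direction. The median of the 9 was -0.15 with CD28 shRNA and -0.20 with CD86 shRNA on the log2 scale, against -0.003 and 0.02 over all genes tested; both comparisons share the Vec libraries.

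The number of calls for CD86 shRNA depended on the test. With limma-voom on reads recovered from the FPKM values, 3 of the 9 passed as lower, SLC7A11 (-0.95, limma-voom adjusted p = 0.0356), SLC1A5 (-0.65, 0.0179) and SLC1A4 (-0.52, 0.0453), while 1.62% of all genes were called lower by that test. In the authors' deposited table a false discovery rate under 0.05 for lower levels with CD86 shRNA belongs to 3 of 9 (SLC3A2, SLC1A4 and SLC1A5) and to 1.55% of its genes, and with CD28 shRNA to SLC3A2 alone and to 2.7% of its genes. SLC1A4 and SLC1A5 were past the threshold in both of these and not in limma on log2(FPKM + 1).

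The other genes that hold the octamers are described beside the SLC7A5 sites. Of the tested genes with an annotated 3′ UTR, 583 other than the transporters hold the CD28-associated octamer, and their median log2 difference with CD28 shRNA was -0.11, against -0.00086 for 9584 genes without it, on the values that ranked the heptamers. In the Mcl1 line, which was not used to rank heptamers, these medians were -0.11 and -0.0041, and 65.5% of holders were below 0, against 50.7% of the others. The same holders and others had parental medians of 0.04 and 0.02 with CD86 shRNA and of 0.0019 and -0.0096 with Gapdh shRNA. The CD86 and Gapdh shRNA libraries did not enter the ranking for CD28 shRNA, but the Vec libraries subtracted from them did. The 668 holders of the CD86-associated octamer had a median of -0.05 with CD86 shRNA, against 0.02 for 9499 others, again on the values that ranked the heptamers, and -0.06 against 0.01 in the Mcl1 line, while with CD28 shRNA they were at -0.01.

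By background, the 3 parental lines being those that ranked the heptamers, holders of the CD28-associated octamer had medians of -0.11 in KMS18, -0.11 in MM.1s, -0.11 in the Mcl1 line and -0.06 in RPMI8226. For the CD86-associated octamer the medians were -0.09, -0.03, -0.06 and -0.03 in the same order. The 3′ UTRs of holders are longer, with a median of 3294 bases against 1255 for the CD28-associated octamer and 3582 against 1243 for the other, and length was not adjusted for. The 86 genes other than the transporters that hold both octamers had medians of -0.05 with CD28 shRNA and -0.01 with CD86 shRNA. The part of these sites in the low SLC7A5 level was not tested.

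**Figure D4:**
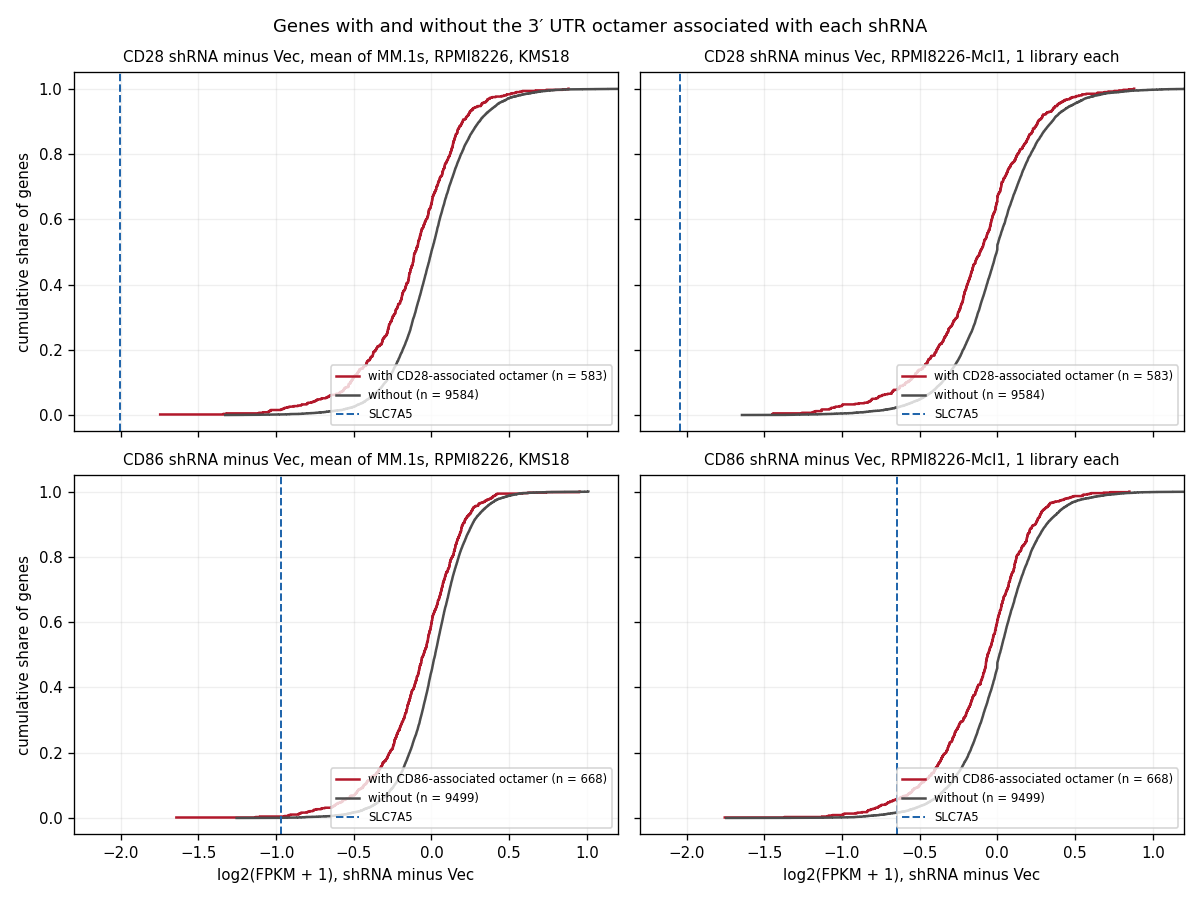
Cumulative share of genes (vertical) by the difference in log2(FPKM + 1) from Vec (horizontal, shown from -2.3 to 1.2) for genes whose 3′ UTR holds the octamer associated with a shRNA and genes without it, without the 10 transporters; the upper row is CD28 shRNA, the lower row CD86 shRNA, with the mean of 3 parental lines on the left and the Mcl1 line on the right. The curves of holders lie slightly to the left of the others, with medians of -0.11 and -0.11 in the upper panels and -0.05 and -0.06 in the lower ones, and the dashed line of SLC7A5 lies at -2.0 and -2.04 in the upper panels and at -0.97 and -0.65 in the lower ones.

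Genes whose levels moved most like SLC7A5 were found by the Pearson correlation of log2(FPKM + 1) over the 16 libraries after the mean of each background was subtracted, among 11348 genes. The 5 closest were TRAM2 (r = 0.975), the membrane protein gene CLPTM1L (0.968), PAICS, an enzyme of purine synthesis (0.954), FAM46C, a poly(A) polymerase that is recurrently mutated in myeloma (0.951), and ME2, a mitochondrial malic enzyme (0.949). Over the 4 backgrounds their mean log2 differences from Vec were -0.69, -0.66, -0.77, -0.60 and -0.86 with CD28 shRNA and -0.24, -0.18, -0.42, -0.33 and -0.46 with CD86 shRNA. Each of the 5 holds at least 1 of the 2 CD28-associated heptamers in its 3′ UTR, as do 31.6% of tested genes with an annotated 3′ UTR, and PAICS holds the whole octamer. Of the CD86-associated heptamers ME2 holds 5, which include the octamer at 2 places, PAICS 2, TRAM2 1 and CLPTM1L and FAM46C 0. At least 1 of them is held by 20.7% of tested genes with an annotated 3′ UTR. TRAM2, CLPTM1L, PAICS and ME2 were among the genes that ranked the heptamers. The correlation also used the CD28 and CD86 shRNA libraries that chose SLC7A5, and the heptamers were ranked by low values with these shRNAs. The heptamer matches of the 5 genes thus follow in part from these choices and are given as a description. Of the transporters SLC3A2 was the most like SLC7A5 (r = 0.814, rank 216), followed by SLC7A1 (0.681, rank 681) and SLC1A5 (0.601, rank 1070), and SLC7A6 was the least (0.03). Libraries share their background mean and their controls, so these values describe 16 libraries and carry no test.

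Levels of most transporters differed between the lines. The 4 libraries of a line carry different constructs, include those that chose SLC7A5, and are not separate cultures. The p-values between lines therefore measure only the spread among these libraries. KMS18 had the highest mean level of SLC7A5, SLC3A2, SLC7A1, SLC7A11, SLC1A5, SLC38A1 and SLC43A1, and MM.1s the lowest of SLC7A5, SLC3A2, SLC7A1, SLC7A11, SLC38A1, SLC38A2 and SLC43A1 of all 4 backgrounds. SLC7A5 averaged 195 ± 117 FPKM in KMS18, 28.4 in MM.1s (range 8.47 to 46.7), 87.1 ± 44.6 in the Mcl1 line and 62.6 ± 27.4 in RPMI8226 (SD over 4 constructs where given), the CD28 shRNA library being the lowest in each. In the control libraries alone (mean of Gapdh shRNA and Vec) the levels were 294, 43.4, 122 and 81.6 FPKM in that order. SLC43A1 averaged 31.8 ± 4.45 FPKM in KMS18, 1.91 ± 0.883 in MM.1s, 15.5 ± 0.768 in the Mcl1 line and 11.7 ± 1.85 in RPMI8226.

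KMS18 against RPMI8226 gave 7 of 10 transporters higher and 2 lower (limma with Benjamini-Hochberg adjustment), where 35.2% of all genes were higher and 35.1% lower. The differences were 1.54 for SLC7A5 (SE 0.15, limma adjusted p = 3.33e-06), 1.00 for SLC3A2, 1.30 for SLC1A5 and 1.38 for SLC43A1. SLC38A2 (-0.57) and SLC7A6 (-0.26) were lower in KMS18, the second no longer past the threshold without the Vec libraries (limma adjusted p = 0.0602), and SLC1A4 did not pass (-0.07, limma adjusted p = 0.646). KMS18 against MM.1s gave 7 higher and 1 lower, where 30.8% of all genes were higher and 34.5% lower: SLC43A1 differed by 3.54, SLC7A5 by 2.77 (limma adjusted p = 4.29e-08) and SLC7A1 by 2.02, and SLC1A4 was lower (-0.62). SLC7A6 and SLC38A2 did not pass. SLC1A5 was higher by 0.42 (limma adjusted p = 0.0216), and this was no longer past the threshold without the CD28, Gapdh or Vec libraries (limma adjusted p = 0.0755, 0.0881 and 0.0645).

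MM.1s against RPMI8226 gave 2 transporters higher and 7 lower, where 35.9% of all genes were higher and 33.2% lower. Both exchangers of the SLC1 family were the higher ones, SLC1A5 by 0.88 (SE 0.14, limma adjusted p = 0.000199) and SLC1A4 by 0.56 (SE 0.12, limma adjusted p = 0.00186). The lower ones ranged from SLC38A1 (-0.36) to SLC43A1 (-2.16), with SLC7A5 at -1.23 (SE 0.15, limma adjusted p = 2.41e-05) and SLC3A2 at -0.81. SLC7A6 did not pass (-0.09, limma adjusted p = 0.335). MM.1s thus had less SLC7A5 and SLC43A1, both carriers of leucine, and more SLC1A5 and SLC1A4 mRNA than RPMI8226. The Mcl1 line was not tested against KMS18 or MM.1s.

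**Figure D5:**
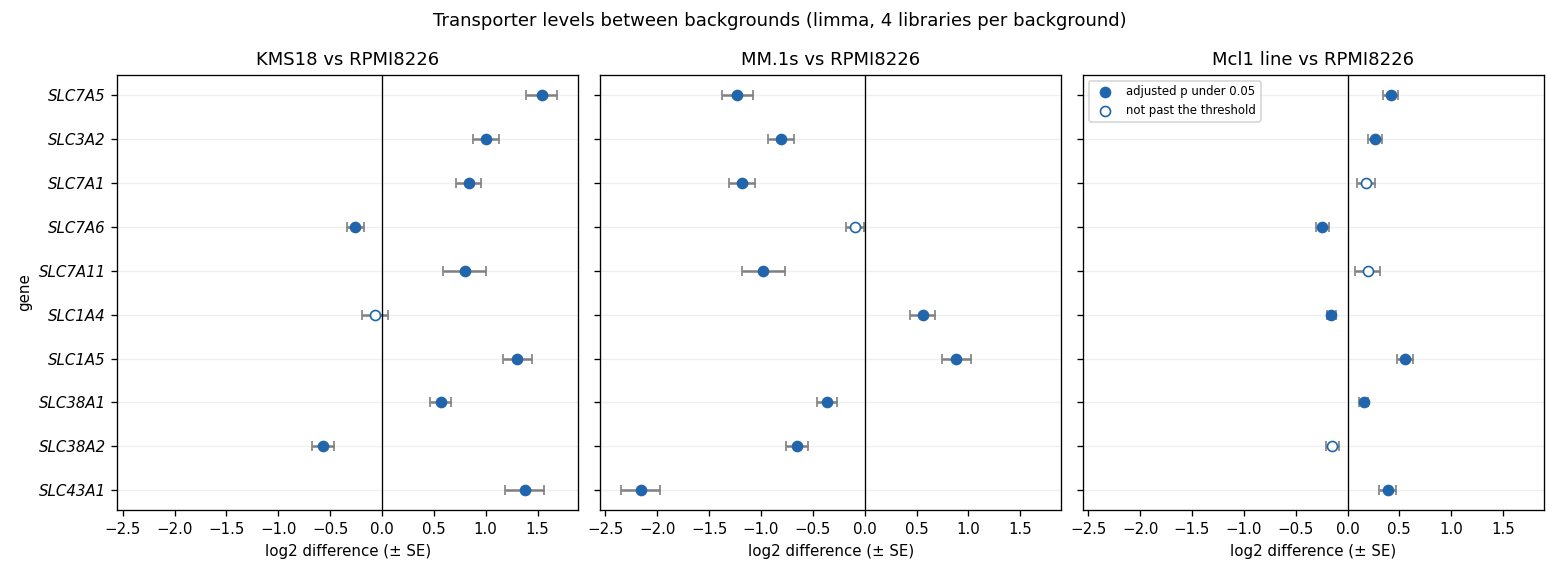
Difference in log2(FPKM + 1) (horizontal, mean ± SE from limma, 4 libraries per background) of the 10 transporters (vertical) for KMS18, MM.1s and the Mcl1 line, each against RPMI8226; filled points passed an adjusted p of 0.05. SLC7A5 lies at 1.54, -1.23 and 0.42 in the panels from left to right, and the Mcl1 line panel has the smallest differences. The 4 libraries of a background carry different constructs and are not separate cultures.

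Overexpression of Mcl1 was compared with the parental RPMI8226, 4 libraries each. MCL1 mRNA itself was 1.43 higher on the log2 scale. Of the 10 transporters 5 were higher in the Mcl1 line, where 19.5% of all 11024 genes were, and 2 were lower, where 14.9% were. SLC1A5 was higher by 0.55 (SE 0.08, limma adjusted p = 0.00151), SLC7A5 by 0.42 (SE 0.07, limma adjusted p = 0.00380), SLC43A1 by 0.39, SLC3A2 by 0.27 and SLC38A1 by 0.15, while SLC7A6 (-0.24) and SLC1A4 (-0.16) were lower. SLC7A5, SLC1A5 and SLC43A1 passed without each construct in turn, and SLC3A2, SLC38A1, SLC7A6 and SLC1A4 did not. Without the construct as a block, SLC7A5 had a limma adjusted p of 0.601 in this comparison. As the Mcl1 line is a single derivation, the effect of Mcl1 and other differences of that derivative cannot be told apart.

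Genes of the same pathways were read beside the transporters. Under CD28 shRNA 0 of 16 tested amino acid transporters outside the set, 0 of 26 members of the ATF4 response list and 0 of 20 cytosolic aminoacyl-tRNA synthetases passed, and 1 of 27 genes of amino acid sensing to mTORC1 did, where 2.11% of all genes were lower and 0.716% higher. That gene was LAMTOR4, a subunit of the complex that holds mTORC1 regulators at the lysosome, at -1.04 (SE 0.11, limma adjusted p = 0.00148). Its 3′ UTR holds the CD28-associated octamer, as do 4.97% of annotated 3′ UTRs. As LAMTOR4 was among the genes that ranked the heptamers on this same comparison, the match is given as a description. MYC was at -0.54 (limma adjusted p = 0.0496) with CD28 shRNA and ATF4 at -0.06 (limma adjusted p = 0.809); neither holds a heptamer of either shRNA. MYC mRNA with CD28 shRNA and Vec was 210 and 353 FPKM in KMS18, 197 and 338 in MM.1s, 326 and 361 in the Mcl1 line and 377 and 401 in RPMI8226.

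Under CD86 shRNA none of the 4 lists had a member past the threshold, where 0.566% of all genes were lower and 0.0619% higher. The ATF4 response list, which includes enzymes of serine and asparagine synthesis, had a median of -0.45 with 24 of 26 below 0, against a median of 0.02 over all genes tested. With CD28 shRNA that median was -0.20 with 21 of 26 below 0, and with Gapdh shRNA -0.12 with 22 of 26 below 0, so the control hairpin has the same sign. Aminoacyl-tRNA synthetases, which charge tRNAs with amino acids, had medians of -0.19 with CD28 shRNA, -0.20 with CD86 shRNA and -0.07 with Gapdh shRNA. Sensing genes had medians of -0.02, 0.12 and 0.08, and the other transporters 0.03, -0.07 and 0.05, in the same order. Between CD86 and CD28 shRNA, where 5.41% of all genes were higher and 4.1% lower with CD86 shRNA, 2 members of the lists were higher and 2 lower. SLC36A1, a proton-coupled amino acid transporter, was 0.79 higher (limma adjusted p = 0.00620) and LAMTOR4 0.96 higher. The leucine carrier SLC43A2 was lower (-0.65, limma adjusted p = 0.0368), with the stress factor ATF3 at -0.80 (limma adjusted p = 0.0277). SLC36A1 and LAMTOR4 hold the CD28-associated octamer, as do 4.97% of annotated 3′ UTRs, while SLC43A2 and ATF3 hold neither octamer. At least 1 CD86-associated heptamer is held by 20.7% of tested genes with an annotated 3′ UTR. SLC36A1 and SLC43A2 each hold 1, and LAMTOR4 and ATF3 hold 0. These genes were among those that ranked the heptamers.

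The ATF4 response list was also compared between lines. In KMS18 against RPMI8226 21 of its 26 genes were higher and 2 lower (median 1.01), where 35.2% of all genes were higher and 35.1% lower, led by PHGDH, the first enzyme of serine synthesis, at 5.28. In KMS18 against MM.1s 21 were higher and 0 lower (median 1.56), where 30.8% of all genes were higher and 34.5% lower, with CBS, an enzyme of cysteine synthesis, at 5.02. In the Mcl1 line against RPMI8226 20 were higher and 0 lower (median 0.57), where 19.5% of all genes were higher and 14.9% lower, with PHGDH at 2.81 and PSAT1, the next enzyme of the pathway, at 1.51. MM.1s against RPMI8226 had 6 higher and 10 lower (median -0.18), where 35.9% of all genes were higher and 33.2% lower. Of the 16 amino acid transporters outside the set, 3 were higher and 9 lower in KMS18 against RPMI8226 (median -0.52). ATF4 mRNA differed less: 0.22 (limma adjusted p = 0.0582) in KMS18 against RPMI8226, 0.31 (limma adjusted p = 0.0141) against MM.1s and 0.04 (limma adjusted p = 0.463) in the Mcl1 line. SLC7A8, another LAT light chain of SLC3A2, was lower in KMS18 (log2 -4.12), in MM.1s (log2 -4.12) and in the Mcl1 line (log2 -2.27) than in RPMI8226. The KMS18 and MM.1s values were identical, as for a gene at the floor of log2(FPKM + 1) in both lines. At that floor the size of a difference depends on the 1 added to FPKM.

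Promoters of the members (RefSeq, GRCh38.p14, 250 bases before to 50 after each start site) were searched on both strands for the core of the amino acid response element bound by ATF4 and C/EBP factors, TGATGNAA, and for the E-box CACGTG, which MYC and other factors can bind. The response element core was found in 5 of 16 promoter entries of the 10 genes, those of SLC1A4, SLC1A5, SLC38A1, SLC3A2 and SLC7A1, and in 3.62% of all 35116 promoter entries. The E-box was found in 3 of the 16, those of SLC7A5, SLC1A5 and SLC43A1, and in 7.26% of all. The sites of SLC7A5 and SLC1A5 are shown because the set was built around SLC7A5 and SLC1A5 is its one member with both motifs; numbers are bases from the start site, and capitals mark the motif.
SLC7A5, E-box at -130: gccggacgacgCACGTGctccgagctgg
SLC1A5, E-box at -50: gcgggagtggtCACGTGgacaggacggg
SLC1A5, response element core at -97: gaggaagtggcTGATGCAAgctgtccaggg
These matches describe letters only, and no binding was measured here.

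Reads of SLC7A5 could be shared with near-identical copies. SLC7A5P1 was listed at 0 in all 16 libraries and SLC7A5P2 had 0 to 0.423 FPKM, at most 6 reads, so little of the SLC7A5 signal stood at these copies in the deposited table.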

How the data were processed

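RNA was measured in 16 libraries (4 backgrounds, 4 constructs, 1 library each). The authors deposited 1 table of FPKM values per gene with exon lengths and, from their own comparisons, log2 fold changes, p-values and false discovery rates; per the submitters' processing notes the tools included edgeR 3.12.1 in R 3.2.2, Picard and TopHat2 2.0.13, with hg19, GRCh37 and mm9 among the builds and no roles stated. The likelihood ratio score per gene that the authors deposited in the same table was not used. Strandedness of the counting is not stated. FPKM multiplied by exon length gave whole reads for 100% of values within 0.02 of a read; reads in genes ranged from 3914513 to 5900955, and mates were probably counted separately, so fragments are fewer.

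The members and gene lists were chosen with earlier results of these data known. All 10 members are named whatever their result, with CD28, CD86, GAPDH, MCL1, MYC, ATF4 and the SLC7A5 pseudogenes, up to 3 genes per list and comparison with the smallest p past the threshold, of which the text gives some, and the 5 genes most like SLC7A5. Knockdowns were compared in the 12 parental libraries (11316 genes, mean FPKM of 1 or more) with limma 3.58.1 in R 4.3.3 (eBayes with trend) on log2(FPKM + 1), with cell line as a block and 6 residual degrees of freedom; lines were compared with construct as a block, and the Mcl1 line with RPMI8226 in 8 libraries (11024 genes, 3 residual degrees of freedom). Tests are two-sided, adjusted by Benjamini-Hochberg over all genes, with a threshold of 0.05, and fold changes on this scale understate those of low genes. Libraries of one line pair the constructs: their deviations from the construct means correlated in all 18 pairs (r 0.870 to 0.952). Lines are the replicates of the knockdowns, and the 4 constructs of a line are not separate cultures, so p-values measure only the spread among these libraries. Alternatives were another pseudocount (0.1), no filter, median-of-ratios scaling, other controls, no block, leaving out lines or constructs, and limma-voom on recovered reads, which was added after the data were seen. The fitting code was tested on simulated data. One marker gene is not reported here. Heptamers and 3′ UTRs come from GENCODE v29 (10177 of the 11316 genes matched by symbol), FAM46C by its current symbol TENT5C, and promoters from RefSeq GRCh38.p14; as the build of the files may differ, no genome coordinates are given. Analyses used Python 3.11.15, pandas 2.3.3 and numpy 2.4.6.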

Additional observations from a re-analysis of the deposited data

Results flagged for a closer look

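Some responses to CD86 shRNA pointed in opposite directions in different lines, by at least 0.2 on the log2 scale against both controls in each line. The difference between lines was not tested, as each rests on 1 library per line and construct. SLC7A1, the arginine and lysine carrier, was at -0.41 in MM.1s and -0.48 in KMS18 relative to Vec, and at 0.30 in RPMI8226. SLC38A2, a glutamine carrier, was at -0.45 in MM.1s and 0.24 in RPMI8226. SLC43A1 was at -0.46 in RPMI8226 and -0.29 in KMS18, and at 0.44 in MM.1s, where it had 55 reads with CD86 shRNA, against 28 with Gapdh shRNA and 30 with Vec. In the Mcl1 line, derived from RPMI8226, the values relative to Vec were -0.19 for SLC7A1, -0.15 for SLC38A2 and -0.08 for SLC43A1. Relative to Gapdh shRNA they were -0.12, 0.04 and -0.13 there.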

How the results depend on the processing

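Counts of transporters past the threshold changed as follows. For CD86 shRNA against Vec the count of 0 became 3 with limma-voom, and for CD86 against CD28 shRNA it became 1 with limma-voom (SLC7A11) and 1 without RPMI8226 (SLC1A4, -0.51). For the Mcl1 line the 7 became 3 without the replicate block for construct, and 3 to 6 when each construct was left out in turn (4 without the CD28 libraries, 6 without CD86, 3 without Gapdh and 3 without Vec), 6 with median-of-ratios scaling and 9 with limma-voom. For KMS18 against MM.1s the 8 became 7 without the CD28, Gapdh or Vec libraries, and for KMS18 against RPMI8226 the 9 became 8 without Vec. Without the replicate block for line, 0 transporters passed in any knockdown comparison, as with the pairing in the model, while the calls over all genes went to 0 for CD28 shRNA, CD86 shRNA and CD86 against CD28 shRNA, where the pairing by line gave 320, 71 and 1076. Leaving out MM.1s, RPMI8226 or KMS18 left 33 to 132 of all genes for CD28 shRNA, 0 to 9 for CD86 shRNA and 137 to 525 between them; with the mean of both controls in place of Vec the first were 583 and 205, with limma-voom 580 and 229, and without the filter 147 and 30 (605 between them). Estimates that turned their sign were small and had not passed. For CD28 shRNA these were SLC7A11 (0.018 without KMS18, 0.040 with both controls), SLC38A1 (0.012 with both controls) and SLC38A2 (-0.031 without KMS18). For CD86 shRNA they were SLC38A2 (0.020 without MM.1s) and SLC43A1 (0.075 without RPMI8226). For CD86 against CD28 shRNA they were SLC3A2 (0.050 without KMS18), SLC7A1 (-0.020 with median-of-ratios scaling, -0.15 without RPMI8226) and SLC43A1 (-0.076 with limma-voom, -0.19 without MM.1s). For Gapdh shRNA they were SLC7A5 (0.013 with limma-voom, 0.057 without MM.1s), SLC3A2 (-0.078 without KMS18), SLC1A4 (-0.0072 without KMS18), SLC38A2 (0.0043 with median-of-ratios scaling) and SLC43A1 (0.014 with that scaling, 0.087 with limma-voom, 0.085 without MM.1s), and for KMS18 against RPMI8226 SLC1A4 (between -0.16 and 0.081 over the constructs left out, above 0 without the CD86 libraries). The cause was not tested. The planned edgeR test was not run, and limma-voom on the recovered reads was used in its place. A group of 3 lines is too small to name an outlying library, and SLC43A1 in MM.1s (12 to 55 reads) and SLC7A11 are limited by depth.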
